A study of Homo sapiens with 6 samples.

Results

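The 8 genes described here encode the best-known reader proteins of N6-methyladenosine (m6A), the methyl mark placed on adenosines inside messenger RNA. They are the YTH family (YTHDF1, YTHDF2, YTHDF3, YTHDC1 and YTHDC2) and the IGF2BP family (IGF2BP1, IGF2BP2 and IGF2BP3). Members were the rows of the deposited gene table whose symbol is one of these names, which gave 8 of 60605 genes. All 8 passed the filter on low values, an FPKM (a count divided by exonic length and by the library's total) no lower than 1 in 3 or more libraries, as did 12865 genes in all.

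Cells read the m6A mark through proteins that bind it and pass the RNA on to other machinery. The YTHDF proteins act in the cytoplasm, where they bring marked transcripts to deadenylases and other decay enzymes. YTHDC1 acts in the nucleus on splicing and export, and YTHDC2 is a helicase best known from the germ line of mice. The IGF2BP proteins bind RNA through KH domains, are made mainly in the embryo and again in many tumours, and are known to stabilise the transcripts they hold, among them that of MYC. Liver cancer cells commonly make IGF2BP1 and IGF2BP3, which healthy adult liver scarcely does.

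The libraries came from HepG2, a long-established cell line from a human liver tumour, grown in DMEM with serum and labelled wild type. Controls were infected with a lentivirus named sh-ctrl (sh-control, 3 libraries), and the others with a lentivirus named sh-circFTO (3 libraries), a hairpin against circFTO, a circular RNA from the FTO gene. All 6 libraries thus shared a lentiviral infection, and the labels name no clone, no second hairpin, no rescue and no withdrawal of serine or glycine. Whether libraries of a group were separate cultures is not stated, so the p-values below reflect the spread among these libraries alone, and that spread may be technical.

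Depth ran from 13361333 to 16178079 counts per library, and the 8 readers had between 778 and 5162 counts in each. Linear and circular FTO reads cannot be told apart in counts per gene, so the knockdown of circFTO itself was not checked here. FTO stood at 59.4, 57.0 and 55.7 normalised CPM (counts relative to the library's total, scaled by TMM) in sh-control and at 55.5, 56.5 and 59.3 in sh-circFTO, and these groups overlapped. Its log2 fold change was -0.0059 with TMM scaling (edgeR adjusted p = 0.937). With library size alone it was 0.14, and FTO was called higher (edgeR adjusted p = 0.0413). All 7 hepatocyte markers passed the filter and all 7 were lower in sh-circFTO, with a summed level of 20610 to 20900 normalised CPM in sh-control and 12070 to 12190 in sh-circFTO. With library size alone as the scale, 5 of the 7 were called lower. The leukocyte marker PTPRC, the endothelial marker KDR and the fibroblast marker LUM had 0 counts in all 6 libraries. The other leukocyte markers summed to at most 1.80 normalised CPM apart from LYZ, the lysozyme gene, which had a log2 fold change of -2.35. Endothelial markers summed to 5.81 to 10.3 in sh-control and 11.6 to 14.6 in sh-circFTO, and fibroblast markers to 4.25 to 5.87 and 2.95 to 5.20. Mitochondrial genes took 7.72% to 8.11% of counts in sh-control and 6.47% to 6.75% in sh-circFTO. The part of these shifts in the results on the readers was not tested.

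The sh-circFTO libraries differed from the controls at every reader transcript, by modest amounts and in opposite directions within each family. YTHDF1, YTHDF2, YTHDC1 and IGF2BP3 were higher in sh-circFTO, and YTHDF3, YTHDC2, IGF2BP1 and IGF2BP2 were lower. At a Benjamini-Hochberg adjusted p under 0.05 in edgeR's quasi-likelihood test, 8 of 8 readers were called, 4 higher and 4 lower. Of all 12865 genes tested, 69.7% were called, 34.9% higher and 34.8% lower, so nothing particular to the readers is read from the count. The groups did not overlap in normalised CPM for 8 of 8 readers, against 71.5% of all genes tested. The median log2 fold change was -0.061 over the readers and 0.0012 over all genes tested, and the median size of change over all genes tested was 0.40. With TMM scaling IGF2BP1 changed most of the readers, and 38.6% of all genes tested changed more than it did. With library size alone IGF2BP3 changed most, at a log2 fold change of 0.60. In bulk RNA, fewer cells that make a transcript and less of it per cell cannot be told apart.

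**Figure D1:**
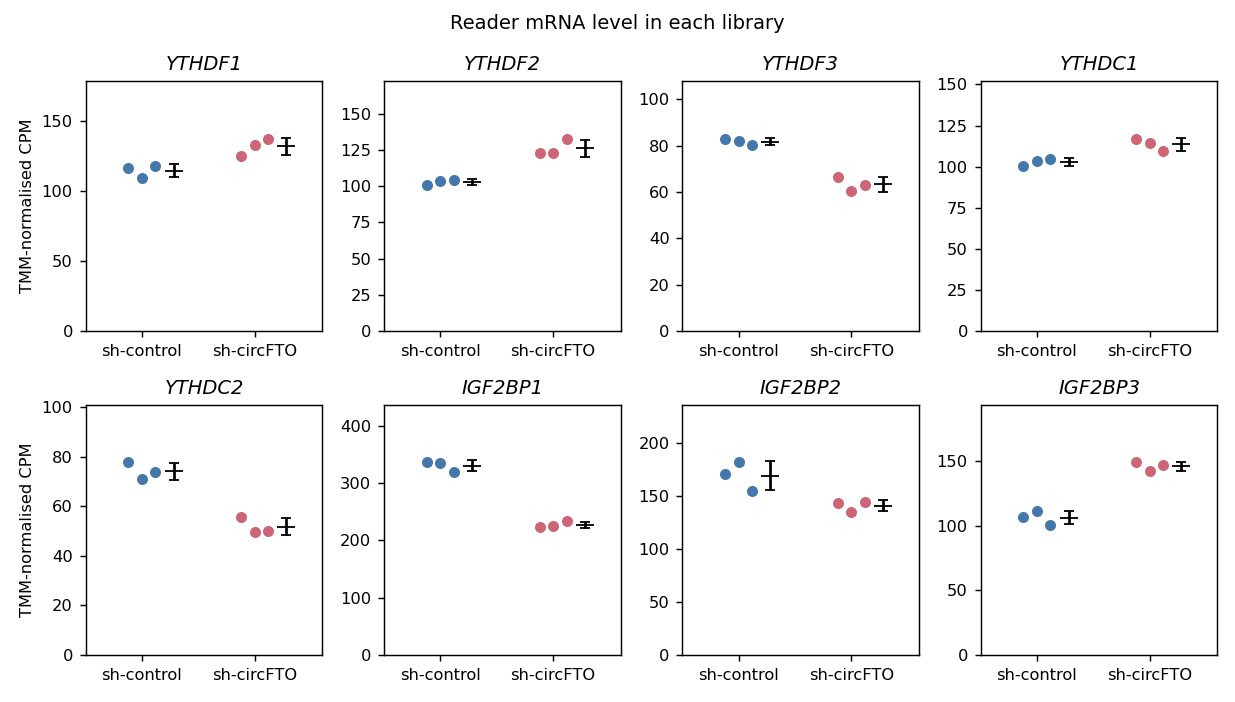
TMM-normalised CPM of each reader mRNA (vertical axis, starting at 0) in each of the 3 sh-control and 3 sh-circFTO libraries, shown as points, with the mean and SD beside them. For each of the 8 readers, the 3 points of a group lie apart from the 3 of the other group.

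YTHDF1 binds m6A in the cytoplasm and is known for promoting translation as well as decay. The gene (ENSG00000149658) lies on the minus strand at chr20:63195429-63216139 on GRCh38. Its normalised CPM was 116, 109 and 118 in the sh-control libraries and 125.05, 133 and 137 in the sh-circFTO libraries. Every sh-circFTO library lay above every control, and the gap between the groups was about as wide as the spread among the controls. The mean went from 114 ± 4.41 to 132 ± 6.12 (SD, n = 3), a log2 fold change of 0.20 (SE 0.0490, 95% interval 0.10 to 0.31, edgeR adjusted p = 0.000518). It was 0.35 with library size alone.

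YTHDF2 is the member best known for bringing m6A-marked transcripts to the CCR4-NOT deadenylase. The gene (ENSG00000198492) lies on the plus strand at chr1:28736621-28769775. Normalised CPM values were 100.6, 103.8 and 104.1 in sh-control and 123, 123 and 133 in sh-circFTO. The controls were close together and well below every sh-circFTO library. The mean went from 103 ± 1.91 to 126 ± 5.74 (SD, n = 3), a log2 fold change of 0.29 (SE 0.0488, 95% interval 0.19 to 0.39, edgeR adjusted p = 4.45e-06).

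YTHDF3, which is known to work with the other YTHDF proteins on the same transcripts, moved the other way. The gene (ENSG00000185728) lies on the plus strand at chr8:63168553-63212786. The libraries gave a normalised CPM of 83.0, 82.2 and 80.1 in sh-control and 66.6, 60.3 and 63.1 in sh-circFTO. Every sh-circFTO library lay below the controls, with a gap wider than the spread within either group. The mean fell from 81.8 ± 1.46 to 63.3 ± 3.16 (SD, n = 3), a log2 fold change of -0.37 (SE 0.0562, 95% interval -0.49 to -0.25, edgeR adjusted p = 1.11e-06). It was -0.22 with library size alone.

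Relative to its paralogs, YTHDF3 stood lower in every sh-circFTO library. A ratio of length-adjusted levels within a library does not depend on how libraries are scaled. The log2 ratio of YTHDF2 to YTHDF3 was 1.003, 1.06 and 1.10 in the sh-control libraries and 1.61, 1.75 and 1.80 in the sh-circFTO libraries. On the linear scale YTHDF2 stood at 2.08 times YTHDF3 in sh-control and 3.29 times in sh-circFTO. The log2 ratio of YTHDF1 to YTHDF3 went from 1.43 ± 0.0703 to 1.999 ± 0.128 (SD, n = 3), again with no overlap. The log2 ratio of YTHDF1 to YTHDF2 overlapped between the groups, at 0.37 ± 0.0696 and 0.28 ± 0.0484 (two-sided exact permutation test, p = 0.2). For the first 2 of these ratios the exact p was 0.1, which is as low as the design allows, or 0.117 adjusted over the 7 ratios computed. YTHDF3 made up 17.3% ± 0.507 of the summed YTHDF level per length in sh-control and 12.1% ± 0.842 in sh-circFTO.

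The summed YTHDF level per length was higher in sh-circFTO under both scalings tried, by different amounts. In deposited FPKM it was 73.3, 71.6 and 73.4 in sh-control and 87.0, 88.5 and 93.2 in sh-circFTO. With TMM scaling, it was 76.5 ± 1.16 and 85.2 ± 3.04 (SD, n = 3), a difference of 11.3%, against 23.1% in deposited FPKM. Every sh-circFTO library was above every control on either scale (two-sided exact permutation test, p = 0.1, the smallest possible with 3 against 3).

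**Figure D2:**
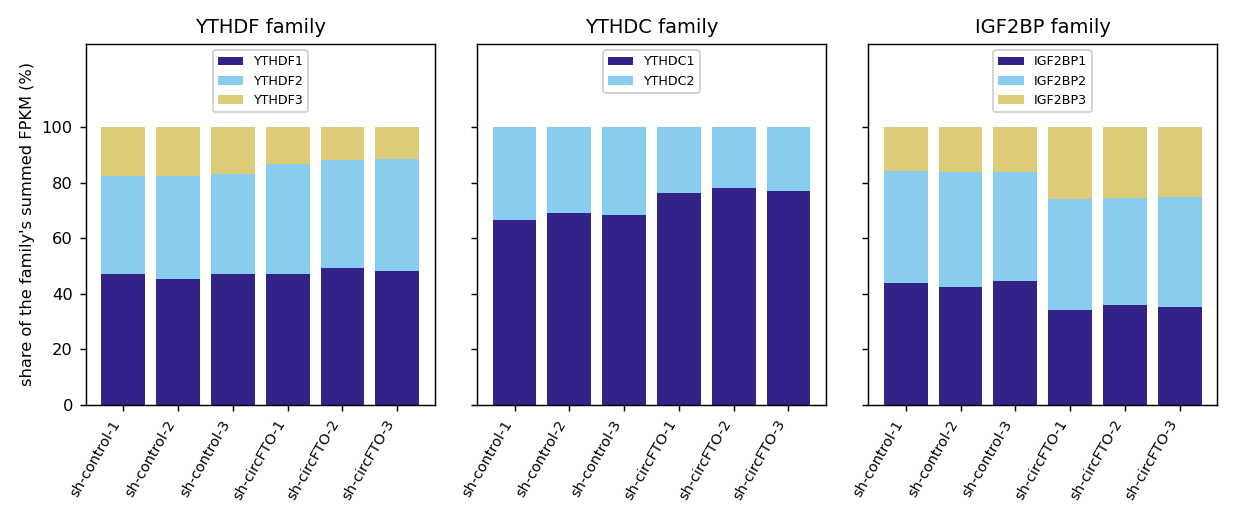
Share of each reader in the summed FPKM of its own family (vertical axis, percent, starting at 0) in each of the 6 libraries, as stacked bars that add to the whole. YTHDF3, YTHDC2 and IGF2BP1 took a smaller share in every sh-circFTO library than in any control, and YTHDF2, YTHDC1 and IGF2BP3 a larger one.

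YTHDC1, the nuclear reader, had the smallest change of the 8 with TMM scaling, while with library size alone that was IGF2BP2. The gene (ENSG00000083896) lies on the minus strand at chr4:68310387-68350090. Its normalised CPM was 100, 104 and 105 in sh-control and 117, 114 and 109 in sh-circFTO. The groups lay next to each other without overlapping. The mean went from 103 ± 2.38 to 114 ± 3.80 (SD, n = 3), a log2 fold change of 0.14 (SE 0.0487, 95% interval 0.042 to 0.24, edgeR adjusted p = 0.0113). The call was lost without the first sh-control library, where the log2 fold change was 0.12 (edgeR adjusted p = 0.0571). It was also lost without the first sh-circFTO library, at 0.12 (edgeR adjusted p = 0.0636). With library size alone the log2 fold change was 0.29.

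YTHDC2 is the helicase of the family, and its best-known role, in mice, is the entry of germ cells into meiosis. The gene (ENSG00000047188) lies on the plus strand at chr5:113513694-113595285. In normalised CPM it stood at 77.7, 70.9 and 74.0 in sh-control and 55.8, 49.5 and 49.96 in sh-circFTO. All sh-circFTO libraries were far below the lowest control. The mean fell from 74.2 ± 3.40 to 51.7 ± 3.55 (SD, n = 3), a log2 fold change of -0.52 (SE 0.0621, 95% interval -0.65 to -0.39, edgeR adjusted p = 1.55e-08).

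YTHDC1 and YTHDC2 thus moved in opposite directions. Their log2 ratio was 0.99, 1.17 and 1.12 in the sh-control libraries and 1.69, 1.83 and 1.75 in the sh-circFTO libraries, so the groups were far apart. On the linear scale YTHDC1 stood at 2.13 times YTHDC2 in sh-control and 3.38 times in sh-circFTO (two-sided exact permutation test of the log2 ratio, p = 0.1, adjusted 0.117). The summed level of the pair had no fixed direction. It was 20.4 ± 0.173 and 22.02 ± 0.839 in deposited FPKM (exact permutation test, p = 0.1), and 21.5 ± 0.245 and 20.9 ± 0.813 with TMM scaling (p = 0.4, SD, n = 3).

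The start regions of 6 of the 8 readers were found in RefSeq's table on GRCh38.p14, as 8 windows of 300 bases that run from 250 bases before a transcript start to 50 after it. They were searched on both strands for CACGTG, the E-box that MYC and related factors bind, since MYC appears in the study's title, and for TGACGTCA, the cAMP response element. TGATGNAAT, a form of the composite element that ATF4 binds, was also searched. The E-box was in 7.26% of all 35116 windows, the cAMP response element in 1.85% and the ATF4 form in 0.991%. Of the 8 reader windows, 2 held the E-box, 2 held the cAMP response element and 0 held the ATF4 form. IGF2BP1 and YTHDF3, both lower in sh-circFTO, had no window and so were not searched. The 4 windows with a match are shown with the matched letters in capitals, and they cover readers that moved in both directions. They are IGF2BP3 (chr7:23470442-23470741, minus strand), YTHDF1 (chr20:63216082-63216381, minus strand), YTHDC1 (chr4:68350041-68350340, minus strand) and YTHDC2 (chr5:113513444-113513743, plus strand).
IGF2BP3 start region: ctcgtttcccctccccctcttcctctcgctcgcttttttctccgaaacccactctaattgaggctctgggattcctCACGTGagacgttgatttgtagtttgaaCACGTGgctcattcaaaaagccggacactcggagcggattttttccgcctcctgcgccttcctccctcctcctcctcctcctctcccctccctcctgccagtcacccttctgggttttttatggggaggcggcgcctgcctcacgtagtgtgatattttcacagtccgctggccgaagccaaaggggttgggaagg
YTHDF1 start region: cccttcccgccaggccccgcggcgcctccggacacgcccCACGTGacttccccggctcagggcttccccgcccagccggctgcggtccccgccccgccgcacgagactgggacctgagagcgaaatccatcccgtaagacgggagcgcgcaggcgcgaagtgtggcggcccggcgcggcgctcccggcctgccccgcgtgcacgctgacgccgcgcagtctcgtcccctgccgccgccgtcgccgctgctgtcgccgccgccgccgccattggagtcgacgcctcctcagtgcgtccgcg
YTHDC1 start region: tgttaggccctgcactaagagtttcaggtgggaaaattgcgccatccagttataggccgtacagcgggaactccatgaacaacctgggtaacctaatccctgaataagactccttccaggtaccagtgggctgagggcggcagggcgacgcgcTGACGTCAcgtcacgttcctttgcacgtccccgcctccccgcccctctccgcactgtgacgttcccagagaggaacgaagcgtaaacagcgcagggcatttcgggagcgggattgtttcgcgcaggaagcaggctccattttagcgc
YTHDC2 start region: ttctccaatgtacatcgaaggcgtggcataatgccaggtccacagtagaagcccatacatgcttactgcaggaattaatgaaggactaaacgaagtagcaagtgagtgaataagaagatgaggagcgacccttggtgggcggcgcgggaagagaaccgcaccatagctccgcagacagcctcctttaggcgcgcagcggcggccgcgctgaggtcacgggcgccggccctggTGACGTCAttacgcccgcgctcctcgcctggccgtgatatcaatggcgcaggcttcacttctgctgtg
The window of IGF2BP3 held CACGTG at 2 places, 174 and 146 bases before the start, and that of YTHDF1 held it 211 bases before the start. Both of these genes were higher in sh-circFTO. No window of YTHDF2 or YTHDC1, also higher, held CACGTG, nor did any of YTHDC2 or IGF2BP2, which were lower. The MYC transcript had a log2 fold change of -0.57, and whether MYC acts on either gene was not tested. The windows of YTHDC1 and YTHDC2 held the same 8 letters, TGACGTCA, 97 and 18 bases before the start, and these genes moved in opposite directions. A match of letters is a description of the window and shows no binding.

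IGF2BP1 had the most counts of the 8 readers and was lower in sh-circFTO. It is a cytoplasmic RNA-binding protein of the embryo that is known to keep the MYC transcript from decay. The gene (ENSG00000159217) lies on the plus strand at chr17:48997385-49056145. Its normalised CPM was 336, 335 and 319 in sh-control and 223, 225 and 233 in sh-circFTO. The groups were far apart compared with the spread inside them. The mean fell from 330 ± 9.68 to 227 ± 5.32 (SD, n = 3), a log2 fold change of -0.54 (SE 0.0404, 95% interval -0.62 to -0.46, edgeR adjusted p = 9.66e-13).

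IGF2BP2, the family member that adult tissues keep and that is linked to insulin secretion and diabetes, was also lower. The gene (ENSG00000073792) lies on the minus strand at chr3:185643130-185825042. In normalised CPM it stood at 170, 181 and 155 in sh-control and 143, 135 and 144 in sh-circFTO. The controls varied more than for any other reader, and the lowest of them lay only a little above the highest sh-circFTO library. The mean fell from 169 ± 13.4 to 141 ± 5.31 (SD, n = 3), a log2 fold change of -0.26 (SE 0.0509, 95% interval -0.37 to -0.16, edgeR adjusted p = 3.71e-05). The size again depended on the scaling: it was -0.12 with library size alone (edgeR adjusted p = 0.0408), and -0.11 on log2(FPKM + 1), where limma did not call it (adjusted p = 0.146).

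IGF2BP3, which is made mainly in the embryo and in tumours, rose while both of its paralogs fell. The gene (ENSG00000136231) lies on the minus strand at chr7:23310209-23470491. The normalised CPM values were 107, 112 and 101.02 in sh-control and 149, 142 and 147 in sh-circFTO. All sh-circFTO libraries were well above the highest control. The mean went from 107 ± 5.28 to 146 ± 3.45 (SD, n = 3), a log2 fold change of 0.46 (SE 0.0481, 95% interval 0.36 to 0.55, edgeR adjusted p = 1.41e-09). MALSU1, a mitochondrial ribosome factor whose gene overlaps IGF2BP3 on the opposite strand, had 513, 574 and 581 counts in sh-control and 379, 431 and 481 in sh-circFTO. Its log2 fold change was -0.45 (edgeR adjusted p = 2.26e-05), opposite to that of IGF2BP3. The use of strand in counting is not given in the sources used here, so reads from the shared stretch cannot be assigned to either gene with certainty.

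**Figure D3:**
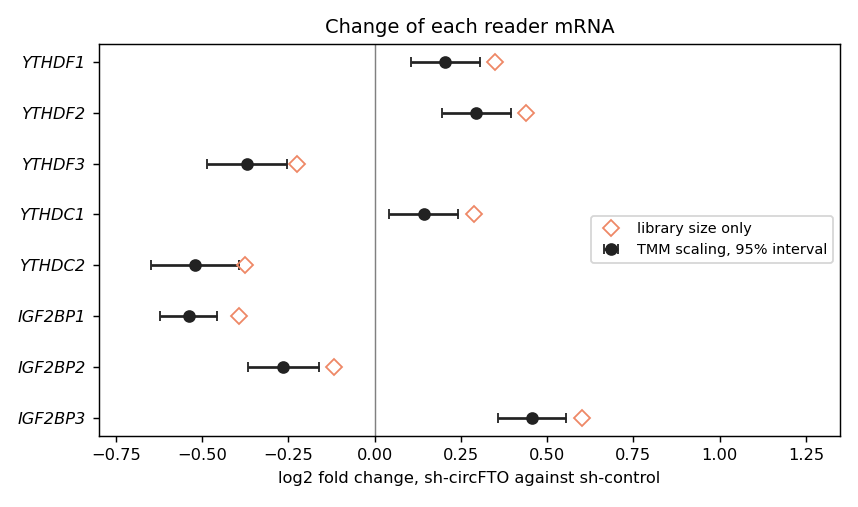
Log2 fold change of each reader in sh-circFTO against sh-control (horizontal axis), with TMM scaling as filled points with 95% intervals and with library size alone as open diamonds. The diamonds lie to the right of the filled points for all 8 readers, and no reader changes sides.

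Of the 7 ratios, that of IGF2BP1 to IGF2BP3 differed most between the groups. It was 1.48, 1.41 and 1.48 in the sh-control libraries and 0.41, 0.49 and 0.49 in the sh-circFTO libraries. The groups stood about 1 log2 unit apart, at 1.46 ± 0.0392 and 0.46 ± 0.0482 (SD, n = 3), on the log2 scale, so IGF2BP1 went from 2.75 times to 1.38 times the level of IGF2BP3. The log2 ratio of IGF2BP2 to IGF2BP3 went from 1.34 ± 0.0440 to 0.62 ± 0.0275. The log2 ratio of IGF2BP1 to IGF2BP2 went from 0.12 ± 0.0792 to -0.16 ± 0.0520, so that the order of these paralogs turned. None of these 3 ratios overlapped between the groups, and each had an exact permutation p of 0.1 (two-sided, the smallest possible) and 0.117 adjusted over the 7 ratios.

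As a share of the summed IGF2BP level per length, IGF2BP3 went from 15.9% ± 0.117 to 25.5% ± 0.376 (SD, n = 3) and IGF2BP1 from 43.8% ± 1.15 to 35.2% ± 0.768. The share of IGF2BP2 was 40.3% ± 1.16 and 39.3% ± 0.598, and its groups overlapped (two-sided exact permutation test, p = 0.3). The family's summed level was lower in sh-circFTO with TMM scaling, at 78.4 ± 4.05 and 67.1 ± 1.62 (exact permutation p = 0.1, n = 3). In deposited FPKM it overlapped, at 74.6 ± 4.12 and 70.6 ± 1.73 (exact permutation p = 0.3, n = 3).

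**Figure D4:**
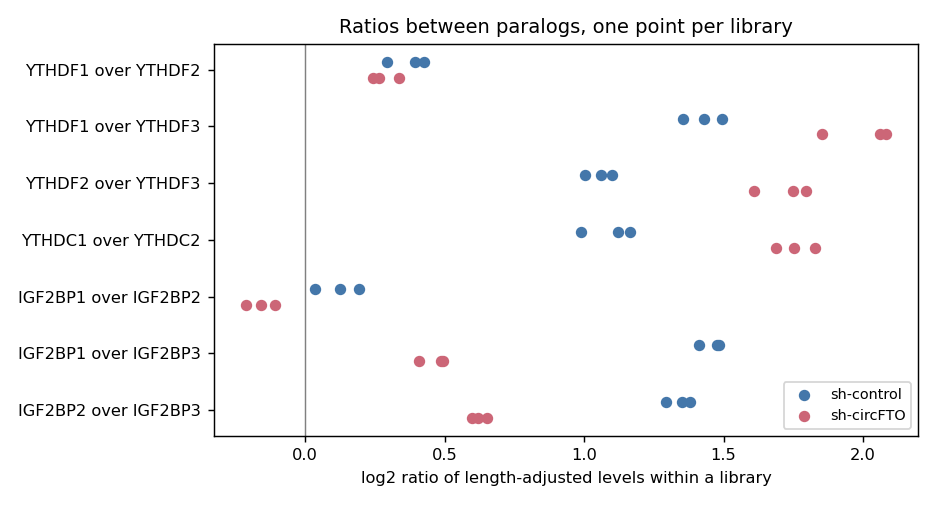
Log2 ratio of length-adjusted levels between paralogs within each library (horizontal axis), 1 point per library, for 7 pairs. The groups are apart for 6 pairs and overlap for YTHDF1 over YTHDF2.

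Ranked by deposited FPKM, a level per length, YTHDF1 came first in both groups and YTHDC2 last. In sh-control the order was YTHDF1 (33.9), IGF2BP1 (32.6), IGF2BP2 (30.1), YTHDF2 (26.2), YTHDC1 (13.9), YTHDF3 (12.6), IGF2BP3 (11.9) and YTHDC2 (6.53). YTHDF1 overlapped with IGF2BP1, IGF2BP1 with IGF2BP2 and YTHDF3 with IGF2BP3, and the other neighbours did not overlap. In sh-circFTO the order was YTHDF1 (43.2), YTHDF2 (35.6), IGF2BP2 (27.7), IGF2BP1 (24.8), IGF2BP3 (18.0), YTHDC1 (17.0), YTHDF3 (10.8) and YTHDC2 (5.04), and no neighbours overlapped. YTHDF2 and IGF2BP3 each moved up by 2 places.

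Among all genes tested, those whose log2 profile over the 6 libraries was most like that of IGF2BP3 included DHX16 and GRIPAP1, at distances of 0.034 and 0.047 log2 units. Their log2 fold changes were 0.46 and 0.46. Those most like IGF2BP1 were RGN, LOXL4 and MYOM3, at 0.049, 0.050 and 0.053, with log2 fold changes of -0.54, -0.53 and -0.54.

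The let-7 family of microRNAs is known to repress the IGF2BP transcripts, so their 3′ UTRs were searched for the match to its seed. From RefSeq, 9 mature human miRNAs were taken by name, those of let-7 and miR-98 (5p). They share the seed GAGGUAG (bases 2 to 8, in capitals), and let-7a is shown for all of them. Other miRNAs were not searched for this seed. The letters that pair with it, CTACCTC, occurred at 4 places in the 3′ UTR of IGF2BP1 and at 1 place each in those of IGF2BP2 and IGF2BP3, on the GENCODE release 29 transcripts (GRCh38). Each site is shown 5′ to 3′ on the transcript strand with those letters in capitals, at chr17:49051062-49051083, chr17:49053699-49053720, chr17:49054353-49054374 and chr17:49054998-49055019 for IGF2BP1, chr3:185644220-185644241 for IGF2BP2 and chr7:23311795-23311816 for IGF2BP3.
hsa-let-7a-5p: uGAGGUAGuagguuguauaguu
IGF2BP1 site a: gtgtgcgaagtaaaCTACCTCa
IGF2BP1 site b: agcagtgctagtaaCTACCTCa
IGF2BP1 site c: tataaatggattaaCTACCTCa
IGF2BP1 site d: cacttttgttttatCTACCTCt
IGF2BP2 site: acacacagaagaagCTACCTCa
IGF2BP3 site: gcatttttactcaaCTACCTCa
The 3′ UTR of IGF2BP1 is 6206 bases long, and 29.3% of 833 genes with a 3′ UTR within 20% of that length held at least 1 match. For IGF2BP2 (1792 bases) and IGF2BP3 (2153 bases) the same shares were 10.9% and 12.4%. The 5 YTH genes held 0 matches in 3′ UTRs of 823 to 3712 bases. IGF2BP2 and IGF2BP3, with 1 match each, moved in opposite directions, and the microRNAs themselves were not analysed here.

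The machinery that the readers work with was described from lists of genes chosen with earlier results of these data known. Every list count is to be read beside the shares over all genes tested, 34.9% higher and 34.8% lower. With library size alone those shares were 44.3% and 27.0%. Of 11 other proteins that bind m6A or the structures it opens, 3 were called higher and 7 lower, with a median log2 fold change of -0.18. EIF3A, a subunit of the initiation factor eIF3 that binds m6A in 5′ UTRs, fell (log2 fold change -0.64, edgeR adjusted p = 5.98e-16). RBMX, which binds RNA opened by m6A, fell (-0.72, edgeR adjusted p = 1.92e-15), and so did SND1 (-0.54, edgeR adjusted p = 2.22e-12). FXR2, a relative of the fragile X protein, rose (0.72, edgeR adjusted p = 8.42e-11). In this list 4 were higher and 5 lower with library size alone.

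Of the 10 CCR4-NOT genes, which YTHDF2 uses to shorten poly(A) tails, 4 were higher and 5 lower, with a median of -0.049. Over all genes tested, 34.9% were higher and 34.8% lower. With library size alone 5 of the 10 were higher and 4 lower, beside 44.3% and 27.0% over all genes tested. On that scale the list's median was 0.097, and that of all genes tested was 0.15. CNOT11 (-0.85) and the catalytic subunit CNOT8 (-0.62) fell, while CNOT6 (0.40), another catalytic subunit, and CNOT9 (0.32) rose. Of the 11 genes of the RIDA and RNase P/MRP route, by which YTHDF2 can lead to a cut inside the transcript, 9 were tested, with 2 higher and 4 lower and a median of -0.13. POP1, the largest protein subunit, rose from 2.23 to 5.60 in mean FPKM (log2 fold change 1.18, edgeR adjusted p = 1.23e-11). POP7 fell (-0.40). RPP30 was called lower (-0.21) but not with library size alone, and POP4 was called higher (0.26) but not without sh-control replicate 2 or 3 or sh-circFTO replicate 3. These counts were unsteady: the route had 4 higher and 1 lower with library size alone, 2 and 2 with DESeq2, and 1 and 2 without sh-circFTO replicate 3. Without sh-circFTO replicate 1 they were 2 and 2, and without sh-control replicate 2 they were 1 and 3.

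Of 11 decapping and 5′-to-3′ decay genes, 5 were higher and 1 lower, with a median of 0.15, beside 34.9% higher and 34.8% lower over all genes tested. The count depended on the settings: over all alternatives 4 to 7 were higher and 0 to 3 lower. With library size alone 7 were higher and 0 lower, beside 44.3% higher and 27.0% lower over all genes tested. Under edgeR's filterByExpr 4 were higher and 3 lower. DDX6, the helicase that links deadenylation to decapping, rose (log2 fold change 0.59, edgeR adjusted p = 5.92e-13). The decapping enhancers EDC3 (0.53), PNRC2 (0.36) and EDC4 (0.27) rose as well. XRN1, the 5′-to-3′ exonuclease that also binds YTHDC2, had a log2 fold change of -0.0049 (edgeR adjusted p = 0.958). The germ-line partners of YTHDC2 were below the filter, with 4 to 16 counts per library for MEIOC and 0 for RBM46.

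**Figure D5:**
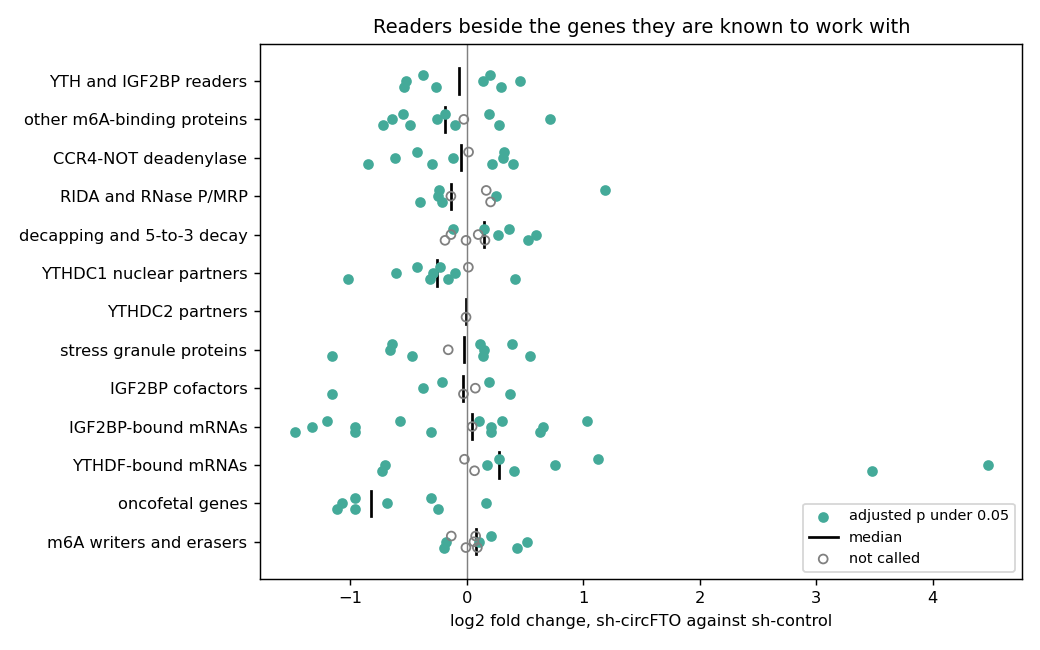
Log2 fold change in sh-circFTO against sh-control (horizontal axis) of each tested gene in the 8 readers and the lists around them, with called genes filled and the list's median as a bar. The lists spread to both sides of 0, and the points beyond 3 among transcripts bound by YTHDF proteins are IL11 and SOCS2.

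Of 10 nuclear partners of YTHDC1, 8 were lower and 1 higher, with a median of -0.26, beside 34.8% lower and 34.9% higher over all genes tested. With library size alone 4 of the 10 were lower and 2 higher, beside 27.0% lower and 44.3% higher over all genes tested. NCL, nucleolin, fell most (log2 fold change -1.02, edgeR adjusted p = 2.28e-20). TRIM28, a corepressor that works with YTHDC1 at silenced repeats in mouse embryonic stem cells, fell (-0.61), as did the splicing factor SRSF10 (-0.42). NXF1, the export receptor, rose (0.41).

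Stress granule genes, whose proteins gather with YTHDF proteins, split into 5 higher and 4 lower of 10, with a median of -0.021. The shares over all genes tested were 34.9% higher and 34.8% lower. PABPC1, the poly(A)-binding protein, fell from 1298, 1405 and 1383 normalised CPM in sh-control to 621, 612 and 603 in sh-circFTO (log2 fold change -1.15, edgeR adjusted p = 2.40e-21). Its groups were far apart. TIAL1 (-0.64) and ATXN2L (-0.66) fell and UBAP2L (0.55) rose. PABPC1 is also counted among the 7 cofactors of the IGF2BP proteins, of which 2 were higher and 3 lower with a median of -0.027. There DHX9 rose (0.37) and SYNCRIP fell (-0.37), and YBX1 was called lower (-0.21) but not with library size alone.

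The transcripts that the literature ties to IGF2BP binding had no common direction. Of 18, 15 were tested, with 7 higher and 7 lower and a median of 0.048, beside 34.9% and 34.8% of all genes tested. CCND1, cyclin D1, rose (log2 fold change 1.04, edgeR adjusted p = 2.38e-20). HMGA2, an architectural chromatin protein of the embryo, fell from 553, 530 and 545 normalised CPM to 271, 273 and 294 (-0.96, edgeR adjusted p = 1.39e-18). TK1, thymidine kinase, fell as well (-1.33). MYC, the target most studied with IGF2BP1, had 253, 277 and 271 normalised CPM in sh-control and 174, 183 and 182 in sh-circFTO, with no overlap (log2 fold change -0.57, edgeR adjusted p = 1.22e-12).

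Of 12 transcripts tied to YTHDF binding, 11 were tested. A mean FPKM under 1 in sh-control was seen for 3 of them, IL11 and SOCS2 included, which passed the filter only through their high sh-circFTO values and so had to differ. Of the other 8, 4 were higher and 2 lower, with a median of 0.12, beside 34.9% and 34.8% of all genes tested. With library size alone CREBBP and HIVEP2 were called higher as well, beside 44.3% higher and 27.0% lower over all genes tested. ATG2A, called higher with TMM scaling, lost its call under several alternatives, among them no filter. The values of IL11 and SOCS2 are given as a description. IL11, an interleukin, stood at 30, 31 and 40 counts in sh-control and 747, 865 and 759 in sh-circFTO (log2 fold change 4.47). SOCS2, a suppressor of cytokine signalling that YTHDF2 is known to lower in liver cancer cells, stood at 43, 49 and 50 counts and 496, 649 and 533 (3.48). In both, every sh-circFTO library was far above the controls. Because of how these genes passed the filter, nothing about YTHDF2 is read from that gap. SON rose (0.41). EIF3C was lower (-0.70), but its reads may be split with the near-identical copy EIF3CL, so its value is uncertain.

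Other genes known to be active in the embryo and again in tumours, as IGF2BP1 and IGF2BP3 are, were mostly lower, 7 of the 8 tested of 10, with 1 higher and a median of -0.82, beside 34.8% lower over all genes tested. PEG10 (log2 fold change -1.07, edgeR adjusted p = 2.21e-21), HMGA2, IGF2 (-0.96) and TRIM71 (-0.69) fell, against the rise of IGF2BP3. The counts were also 7 lower and 1 higher with library size alone. The hepatocyte markers described above, of which AFP is in both lists, moved in the same direction.

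Of the 11 enzymes and partners that write or erase m6A, 4 were higher and 2 lower, with a median of 0.077. The same shares over all genes tested were 34.9% and 34.8%. ZC3H13 (log2 fold change 0.52, edgeR adjusted p = 7.26e-11), METTL16 (0.43) and RBM15B (0.21) rose. METTL3, the catalytic writer, was called lower (-0.18) but not with library size alone. On that scale 8 of the 11 were higher and 0 lower, beside 44.3% higher and 27.0% lower over all genes tested.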

How the data were processed

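The deposited table of the whole series holds, per the file headers and the values, raw counts per Ensembl gene for each of the 6 libraries. It also holds FPKM values that the authors computed: 0 of 363630 differed by more than 0.00501 from the count divided by the deposited exonic length and the library's total. For the aligner, the counting tool and its use of strand, nothing is given in the sources used here. GRCm38, mm10 and hg18 are listed in the submitters' processing notes, but the identifiers are human: 58337 were found in GENCODE release 29, and 56808 of these lay within 5000 bases of their GRCh38 position, so coordinates are GRCh38.

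Per the labels' protocols, total RNA and a SMARTER mRNA-Seq kit were used. Genes at an FPKM no lower than 1 in 3 or more libraries were compared with edgeR 4.0.16 (R 4.3.3): TMM factors, totals over all genes as library sizes, quasi-likelihood test, adjusted p under 0.05. The same fit was tested on simulated data with 50 genes changed at each of several folds. It recovered 52% at 1.25-fold, 82% at 1.5-fold and 94% at 2-fold, and 6.82% of its calls were false. It called 176 genes, far fewer than in these data, so it does not cover changes as wide as those here. CPM are TMM-normalised, folds are sh-circFTO against sh-control, and values are mean ± SD over 3 libraries. Each SE was derived from the test, as the absolute log2 fold change divided by the square root of the F statistic. The 95% interval was built from that SE with a t quantile. Ratios and shares were compared by two-sided exact permutation. Within groups, chi-square per degree of freedom was 2.05 to 4.30, against 84.8 to 95.3 between groups, so all libraries were kept apart.

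Members and lists were chosen with earlier results of these data known. All 8 readers are named, and of each list up to 4 genes with the smallest adjusted p; MYC, FTO, XRN1, MALSU1 and LYZ are named for their roles, with their values already seen. Some genes that these rules take are left out here. Likeness of profile was the Euclidean distance between log2 CPM values centred per gene. The alternatives were other scaling factors, library size alone, no filter, edgeR's filterByExpr, DESeq2 1.42.0, limma 3.58.1 on log2(FPKM + 1) and log2(FPKM + 0.1), a replicate block, each library left out, and, added after seeing the data, removal of a GC and length trend.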

Additional observations from a re-analysis of the deposited data

How the results depend on the processing

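Over 15 alternatives, 115 of 120 reader values kept both direction and call, and 0 reversed. The exceptions were YTHDC1 and IGF2BP2. For YTHDC1 the log2 fold change was 0.12 with no filter (edgeR adjusted p = 0.0555), and it ranged from 0.12 to 0.17 when libraries were left out in turn. For IGF2BP2 it was -0.11 by limma on log2(FPKM + 1) (adjusted p = 0.146) and -0.12 on log2(FPKM + 0.1) (adjusted p = 0.148). Library size alone moved YTHDF1 to 0.35, YTHDF3 to -0.22, YTHDC1 to 0.29 and IGF2BP2 to -0.12, each by over 1.5 times. Each of the other 6 readers kept its call throughout, with IGF2BP3 from 0.42 to 0.60 and IGF2BP1 from -0.56 to -0.38. The number of readers called was 7 or 8. Over all genes, 8423 to 10306 were called, against 8969 of 12865 tested in the main fit. The numbers tested differed: no filter called 10306 of 30254 genes, and filterByExpr 10074 of 15386. Library size alone moved the median of all genes to 0.15 and the calls to 5700 higher and 3471 lower. Deviations of same-numbered libraries from their group means had correlations of 0.0004, -0.019 and 0.074, against -0.056 to 0.057 for differently numbered ones. With 3 libraries a group, these values cannot show whether same-numbered libraries were prepared together. A replicate block called 8999 genes and all 8 readers. Removing the GC and length trend gave 8951 calls. All 120 alternatives for ratios and shares kept their direction, but some of these could not reverse. The replicate block reuses the main difference, and gene length cancels from the group difference of a log2 ratio. With each library left out in turn, which could reverse them, every ratio and share kept its direction. Of 540 list counts, 39 moved by over 1.5 times. With 3 libraries a group, the exact permutation test of a ratio cannot go below p = 0.1.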
